A study of Mus musculus with 6 samples.

Results

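The genes described here encode 9 proteins that receive and relay the Hedgehog signal. They were chosen by gene symbol, with earlier results of these data known: Ptch1, Gli1, Hhip, Smo, Gli2, Gli3, Boc, Cdon and Gas1. All 9 were among the 23337 gene rows of the series and all 9 were among the 13925 genes with enough counts to be tested. RNA had been sequenced from nuclei of cultured mouse neural precursor cells with a disrupted Fmr1 gene (labelled Fmr1 KO, lines 3, 13 and 16) and with an intact one (labelled Fmr1 WT, lines 3, 8 and 19), 1 library per line, to compare nuclear RNA between genotypes. Fmr1 encodes FMRP, an RNA-binding protein. Both genotypes came from forebrain of E13.5 embryos (the dorsal hem, per the growth protocol), were used at passage 6 to 7 and grew on Matrigel with EGF and basic FGF (20 ng/ml each), heparin and the B27 and N2 supplements. No Hedgehog ligand or Smo agonist is listed in the growth protocol. The sources used here give neither the strain nor the kind of Fmr1 allele.

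Hedgehog proteins are secreted ligands that pattern the embryo and keep neural and granule cell precursors dividing. Without ligand the receptor Ptch1 holds the membrane protein Smo inactive, and Gli2 and Gli3 are cut into repressors or degraded. When ligand binds Ptch1 with help from the co-receptors Boc, Cdon and Gas1, Smo enters the primary cilium and full-length GLI proteins turn on target genes, which include Ptch1, Gli1 and Hhip themselves. In the embryonic neural tube Boc, Cdon and Gas1 are known to be lowered by Hedgehog signalling, and in the forebrain Gli3 is best known as a repressor that keeps dorsal tissue dorsal.

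Total counts ran from 18702738 to 26789522 per library, so 1 count was worth 0.0373 to 0.0535 CPM, the count scaled to a common library total. Values below are TMM-scaled CPM (library sizes adjusted by a trimmed mean of the genes' log ratios) unless stated, and a gene is said to have risen or fallen where the edgeR quasi-likelihood test gave an adjusted p below 0.05. Libraries of 1 genotype differed well beyond counting error, with chi-square values of 10.8 to 91.5 for each degree of freedom. For the library labelled KO line 3 this value was 72.6 with KO-labelled line 13 and 91.5 with KO-labelled line 16. Paired with WT lines 3, 8 and 19, the same library gave 107.3, 90 and 153.4. KO-labelled lines 13 and 16 gave 16.4 with each other. Fmr1 RNA was present in every KO-labelled library, and in KO-labelled line 3 it was above every WT library. It measured 371, 188 and 153 CPM in the KO-labelled lines 3, 13 and 16. WT lines 3, 8 and 19 were at 223, 270 and 274 CPM (log2 fold change -0.10, SE 0.29, edgeR adjusted p = 0.795). Without the library labelled KO line 3, Fmr1 passed as lower, at -0.58 (edgeR adjusted p = 0.00152). Directions below are therefore between KO-labelled libraries and WT libraries, and a gene count does not tell intact Fmr1 RNA from a disrupted transcript. Xist, the RNA of the inactive X chromosome, was at 19659 CPM of total counts in the library labelled KO line 3. It was at 3.39 and 1.69 CPM in KO-labelled lines 13 and 16, against 15783, 18582 and 80.6 CPM in WT lines 3, 8 and 19. Xist was thus high in the KO-labelled line with the highest Fmr1 RNA and low in the others of that label. A link between Xist and Fmr1 levels was not tested. The 8 neural precursor markers summed to between 5485 and 6706 CPM in KO-labelled libraries and between 7304 and 7997 CPM in WT, with Nes and Vim the highest in every library. Of 6 markers of choroid plexus and cortical hem, Lmx1a and Wnt3a had 0 counts in every library, and Ttr and Rspo2 had 5 and 7 counts in all. Wnt2b (7.86 to 11.4 CPM) and Foxj1 (10.5 to 15.6 CPM) were present in every library and did not pass the test.

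In KO-labelled libraries 8 of the 9 genes rose and 0 fell, while Gas1 did not pass the test. Over all tested genes 42.3% passed the test, 21.8% rising and 20.4% falling. Because the 9 were chosen with earlier results known, the shares set beside them describe the genes and are not a test. At least 2-fold rises were seen in 5 of the 9, beside 5.72% of all tested genes, and falls of that size in 0 of the 9, beside 8.43%. In the 8 genes that rose, every library labelled KO lay above every WT library, an order that 28.6% of tested genes showed. The median log2 fold change of the 9 was 1.07, against 0.01 over all tested genes. By role, the median log2 fold change was 2.21 for the targets Ptch1, Gli1 and Hhip, 1.27 for Smo, Gli2 and Gli3, and 0.54 for the co-receptors. The count was also 8 risen and 0 fallen without the library labelled KO line 3.

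**Figure D1:**
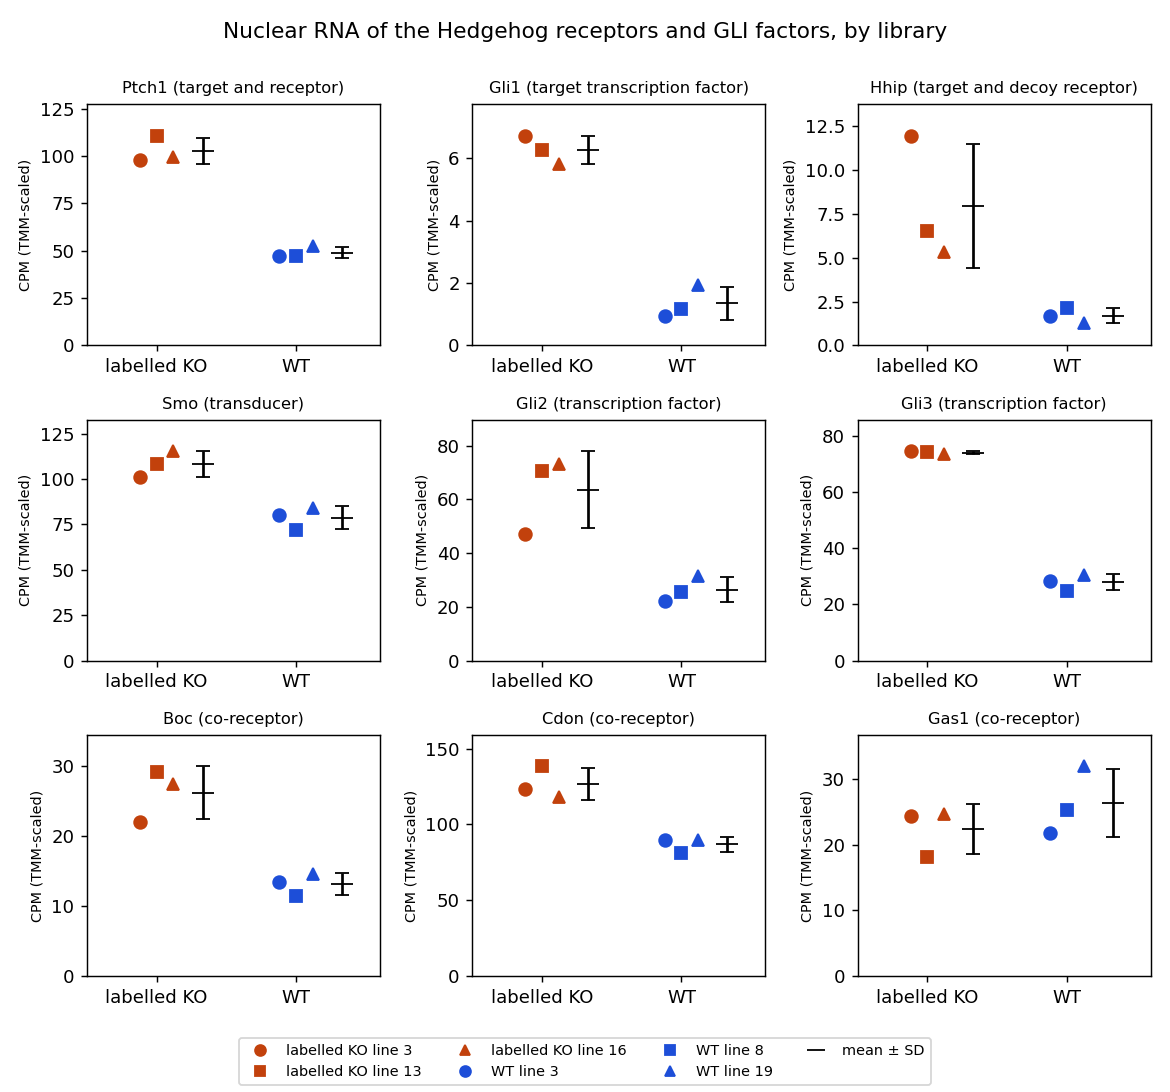
Nuclear RNA of the 9 genes in TMM-scaled CPM (vertical axes, each from 0) for KO-labelled libraries (left, orange) and WT (right, blue), 1 point per line, with mean ± SD beside each group. In 8 panels the orange points all lie above the blue ones; in the Gas1 panel the groups overlap.

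Ptch1 (ENSMUSG00000021466.12, chromosome 13, 63508328 to 63573598, minus strand, GRCm38) is both the ligand receptor and a GLI target. It measured 98.01, 111 and 99.2 CPM in the KO-labelled lines 3, 13 and 16, against 47.4, 47.4 and 52.3 CPM in WT lines 3, 8 and 19. The groups were far apart for their narrow spread, and even the lowest library labelled KO was 1.88 times the highest WT library. Means were 103 ± 6.99 CPM in KO-labelled libraries and 49.0 ± 2.82 CPM in WT (SD, n = 3 each), and the log2 fold change was 1.07 (SE 0.11; edgeR adjusted p = 0.000125).

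Gli1 (ENSMUSG00000025407.7, chromosome 10, 127329882 to 127341974, minus strand) encodes a GLI activator that is made in response to the signal. It held 126, 148 and 136 counts in the KO-labelled lines 3, 13 and 16, against 26, 23 and 36 counts in WT lines 3, 8 and 19, which is 6.73, 6.26 and 5.84 CPM against 0.951, 1.17 and 1.95 CPM. Every library labelled KO was at least 2.99 times the highest WT library, WT line 19. The log2 fold change was 2.23 (SE 0.26, edgeR adjusted p = 0.000276), the highest of the 9 and 159th of the 13925 tested genes. Exons of Gli1 share 62 bases with Arhgap9 on the opposite strand, a gene with at most 1 count in any library, and 265 bases with the antisense gene Gm47200, which has no row among the counts analysed here.

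Hhip (ENSMUSG00000064325.4, chromosome 8, 79965851 to 80058006, minus strand) encodes a cell-surface protein that binds Hedgehog ligands and holds them away from Ptch1. Its values were 11.97, 6.56 and 5.32 CPM in the KO-labelled lines 3, 13 and 16, and 1.68, 2.13 and 1.30 CPM in WT lines 3, 8 and 19. The library labelled KO line 3 stood highest, so the spread within that label was wide (3.54 CPM SD around a mean of 7.95 CPM, n = 3). The log2 fold change was 2.21 (SE 0.34, edgeR adjusted p = 0.00109), and 1.80 without that library. Exons of Hhip share 175 bases with Gm27820 on the opposite strand. Gli1 and Hhip were the 2 of the 9 that rose at least 4-fold, as did 1.59% of all tested genes.

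Smo (ENSMUSG00000001761.7, chromosome 6, 29735503 to 29761365, plus strand), the transducer that Ptch1 restrains, changed least among the genes that rose. It measured 101, 108 and 115 CPM in the KO-labelled lines 3, 13 and 16, and 80.1, 71.7 and 84.3 CPM in WT lines 3, 8 and 19. The groups did not overlap, but the lowest library labelled KO was only 1.20 times the highest WT one. Its log2 fold change was 0.46 (SE 0.11, edgeR adjusted p = 0.00883).

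Gli3 (ENSMUSG00000021318.15, chromosome 13, 15463235 to 15730026, plus strand) had the steadiest values of the 9 in KO-labelled libraries. They were 74.4, 74.1 and 73.3 CPM in lines 3, 13 and 16, against 28.2, 24.9 and 30.6 CPM in WT lines 3, 8 and 19. The means of 74.0 ± 0.547 CPM in KO-labelled libraries and 27.9 ± 2.87 CPM in WT (SD, n = 3 each) lie 1.41 apart in the fitted log2 fold change, with an SE of 0.11 (edgeR adjusted p = 4.38e-05). Its exons share 188 bases with Gm6556 on the opposite strand.

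Gli2 (ENSMUSG00000048402.14, chromosome 1, 118834132 to 119053619, minus strand), the main GLI activator downstream of Smo in the mouse embryo, rose too but less evenly. It measured 47.2, 70.5 and 73.3 CPM in the KO-labelled lines 3, 13 and 16, and 22.2, 25.6 and 31.5 CPM in WT lines 3, 8 and 19. The library labelled KO line 3 lay between the other libraries of that label and WT. The log2 fold change was 1.27 (SE 0.19, edgeR adjusted p = 0.00104), and it was 1.45 without the library labelled KO line 3.

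The co-receptors did not move as one. Boc (ENSMUSG00000022687.12, chromosome 16, 44485049 to 44558897, minus strand), an immunoglobulin-family receptor also known for guiding commissural axons, measured 22.0, 29.1 and 27.4 CPM in the KO-labelled lines 3, 13 and 16 and 13.4, 11.4 and 14.6 CPM in WT lines 3, 8 and 19. All KO-labelled lines lay above all WT lines. Its log2 fold change was 0.997 (SE 0.15, edgeR adjusted p = 0.00105).

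Cdon (ENSMUSG00000038119.15, chromosome 9, 35421128 to 35507652, plus strand), the close relative of Boc, had a smaller log2 fold change. It measured 123, 138 and 118 CPM in the KO-labelled lines 3, 13 and 16 and 89.8, 81.2 and 89.5 CPM in WT lines 3, 8 and 19. The groups were separate, and Cdon rose by 0.54 on the log2 scale (SE 0.11, edgeR adjusted p = 0.00359).

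Gas1 (ENSMUSG00000052957.8, chromosome 13, 60174405 to 60177365, minus strand), a lipid-anchored co-receptor encoded by a gene with 1 exon, was the exception. It measured 24.4, 18.1 and 24.7 CPM in the KO-labelled lines 3, 13 and 16 and 21.7, 25.2 and 31.9 CPM in WT lines 3, 8 and 19. The groups overlapped: WT line 3 lay below the KO-labelled lines 3 and 16. The difference of -0.23 on the log2 scale (SE 0.18) missed the threshold (edgeR adjusted p = 0.329). Of its exon, 19.9% is shared with the long noncoding RNA gene Gm48488 on the opposite strand, so reads of these 2 genes may be mixed if the counting ignored strand.

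Upstream sequence from RefSeq (GRCm38.p6) is shown for 4 genes that rose together, Ptch1, Hhip, Gli3 and Gli2, and for Gas1, which did not. RefSeq promoter entries were found for 7 of the 9 genes, all but Gli1 and Boc. Each window is the 250 bases before the annotated start, on the gene's strand: chr13:63565736-63565985 (minus) for Ptch1, chr8:80058009-80058258 (minus) for Hhip, chr13:15463473-15463722 (plus) for Gli3, chr1:119053620-119053869 (minus) for Gli2 and chr13:60177536-60177785 (minus) for Gas1. Capitals mark CCACCC or its reverse complement GGGTGG, the letters at the core of the GLI motif GACCACCCA.
Ptch1: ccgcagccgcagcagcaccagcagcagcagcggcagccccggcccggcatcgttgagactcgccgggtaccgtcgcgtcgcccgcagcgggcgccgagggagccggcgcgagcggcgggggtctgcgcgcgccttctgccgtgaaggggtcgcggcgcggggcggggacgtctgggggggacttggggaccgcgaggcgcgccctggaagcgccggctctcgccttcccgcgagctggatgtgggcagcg
Hhip: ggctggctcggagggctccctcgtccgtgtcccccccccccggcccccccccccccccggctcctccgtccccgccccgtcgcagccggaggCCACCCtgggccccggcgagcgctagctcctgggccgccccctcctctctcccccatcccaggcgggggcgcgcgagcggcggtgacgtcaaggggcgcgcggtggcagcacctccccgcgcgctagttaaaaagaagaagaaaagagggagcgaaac
Gli3: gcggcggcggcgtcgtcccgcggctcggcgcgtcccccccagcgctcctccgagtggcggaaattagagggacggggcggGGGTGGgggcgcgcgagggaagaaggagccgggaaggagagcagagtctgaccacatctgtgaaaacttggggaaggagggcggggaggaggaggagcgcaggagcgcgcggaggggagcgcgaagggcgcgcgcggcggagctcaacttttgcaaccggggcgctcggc
Gli2: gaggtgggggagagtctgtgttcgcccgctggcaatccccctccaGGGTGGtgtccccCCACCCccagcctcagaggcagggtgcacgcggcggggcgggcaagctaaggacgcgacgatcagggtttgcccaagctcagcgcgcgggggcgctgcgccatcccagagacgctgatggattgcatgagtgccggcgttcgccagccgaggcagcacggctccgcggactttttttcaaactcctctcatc
Gas1: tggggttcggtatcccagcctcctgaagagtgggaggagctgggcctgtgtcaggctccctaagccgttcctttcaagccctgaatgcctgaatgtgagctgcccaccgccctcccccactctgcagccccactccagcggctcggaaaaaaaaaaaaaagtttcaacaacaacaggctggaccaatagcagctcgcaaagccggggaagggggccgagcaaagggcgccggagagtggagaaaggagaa

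The full motif GACCACCCA was in none of the 7 windows on either strand, and 0.225% of the 32851 RefSeq windows of this length hold it. The core was found once in Hhip, 158 bases before the start, once in Gli3, at 170 bases, once in Smo, at 162 bases, and at 192 and 205 bases before the start of Gli2. It was absent from the Ptch1, Cdon and Gas1 windows, and 28.1% of all windows hold it. G and C made up 78.4% of the Ptch1 window, 76.0% of that of Hhip, 72.8% of Gli3, 68.4% of Smo and 67.2% of Gli2. The Gas1 window was at 58.8% and that of Cdon, which also rose, at 42.8%. The G and C share over all RefSeq windows was not computed. The Ptch1, Gli3 and Cdon windows stand at a RefSeq start inside the longer GENCODE gene.

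Levels can be set against each other only per length, here as CPM per kilobase of exon (union of GENCODE M21 exons). Smo and Cdon were the most abundant of the 9 in both genotypes. Smo was at 19.3 ± 1.27 and Cdon at 16.4 ± 1.35 CPM per kb in KO-labelled libraries, against 14.0 ± 1.144 and 11.3 ± 0.635 CPM per kb in WT (SD, n = 3 each). In KO-labelled libraries there followed Gli2 (9.27 ± 2.09), Gli3 (7.71 ± 0.057), Gas1 (7.57 ± 1.27) and Ptch1 (7.24 ± 0.493 CPM per kb), and in this run each gene overlapped the next. Boc came next at 5.88 ± 0.842, below the range of Ptch1, then Gli1 at 1.26 ± 0.0899 and Hhip at 0.876 ± 0.390 CPM per kb, whose ranges overlapped.

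WT libraries had a different order in the middle. Gas1 came next after Smo and Cdon there, at 8.88 ± 1.74 CPM per kb, with a range that overlapped that of Cdon, and Gli2 (3.85 ± 0.678), Ptch1 (3.46 ± 0.199), Boc (2.95 ± 0.362) and Gli3 (2.91 ± 0.299 CPM per kb) lay below it. In that run Gli2 overlapped Ptch1, and Boc overlapped Gli3, while Ptch1 and Boc were separate. Gli1 and Hhip were again the lowest, at 0.272 ± 0.106 and 0.188 ± 0.0456 CPM per kb (SD, n = 3 each).

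The 3 GLI factors together came to 15.98, 19.2 and 19.5 CPM per kb in the KO-labelled lines 3, 13 and 16, against 6.37, 6.56 and 8.16 CPM per kb in WT lines 3, 8 and 19. Gli2 and Gli3 made up most of that sum in every library. Gli1 made up 8.44%, 6.51% and 6.00% of it in the KO-labelled lines 3, 13 and 16, and 2.99%, 3.56% and 4.79% in WT lines 3, 8 and 19, so its share was larger in each library labelled KO than in any WT library. The share of Gli3 was 42.7 ± 5.13% in KO-labelled libraries and 41.6 ± 3.97% in WT (SD, n = 3 each), and the groups overlapped.

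**Figure D2:**
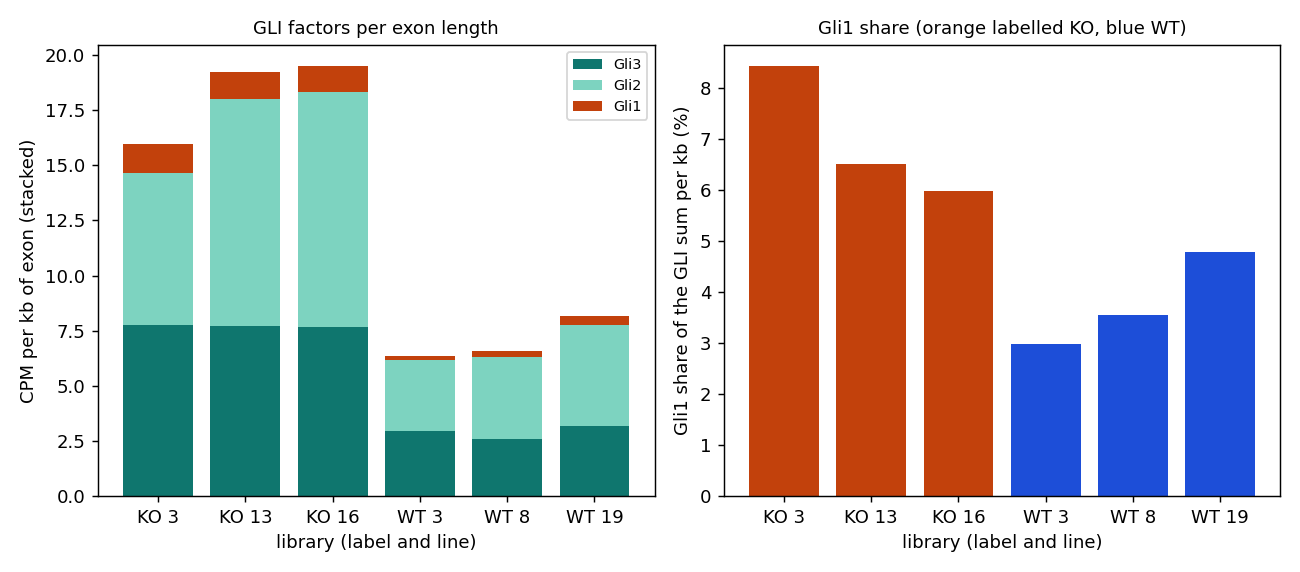
Left: stacked CPM per kb of exon of Gli3, Gli2 and Gli1 in each library, labelled KO before WT. Right: the share of Gli1 in that sum, in percent, which runs from 6.00% to 8.44% in KO-labelled libraries and from 2.99% to 4.79% in WT.

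Ratios between 2 genes within a library do not depend on how libraries are scaled. There were 8 such log2 count ratios, and with 3 libraries against 3 an exact permutation test cannot give a two-sided p below 0.1. Gli1 over Gli3 was higher in KO-labelled libraries by 0.84 on the log2 scale, and Gli1 over Gli2 averaged -3.31 ± 0.45 there against -4.31 ± 0.28 in WT (SD, n = 3 each). Ptch1 over Smo was at -0.05, 0.03 and -0.22 in the KO-labelled lines 3, 13 and 16, against -0.76, -0.60 and -0.69 in WT lines 3, 8 and 19, a difference of 0.60. Ptch1 over Hhip was lower by 1.08 in KO-labelled libraries.

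Among co-receptors, Boc over Gas1 was higher by 1.22, Cdon over Gas1 by 0.77 and Boc over Cdon by 0.45 on the log2 scale in KO-labelled libraries. In these 7 ratios the groups did not overlap, and each had the smallest exact permutation p that the design allows (p = 0.1, adjusted p = 0.114 over the 8 ratios). The ratios share genes and so are not independent, and the share of other gene pairs that separate was not computed. Of single tested genes, 28.6% had all KO-labelled libraries above all WT libraries and 25.7% had all below. Gli2 over Gli3 overlapped between the groups and differed by -0.16 (exact permutation p = 0.5), and by 0.05 without the library labelled KO line 3.

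**Figure D3:**
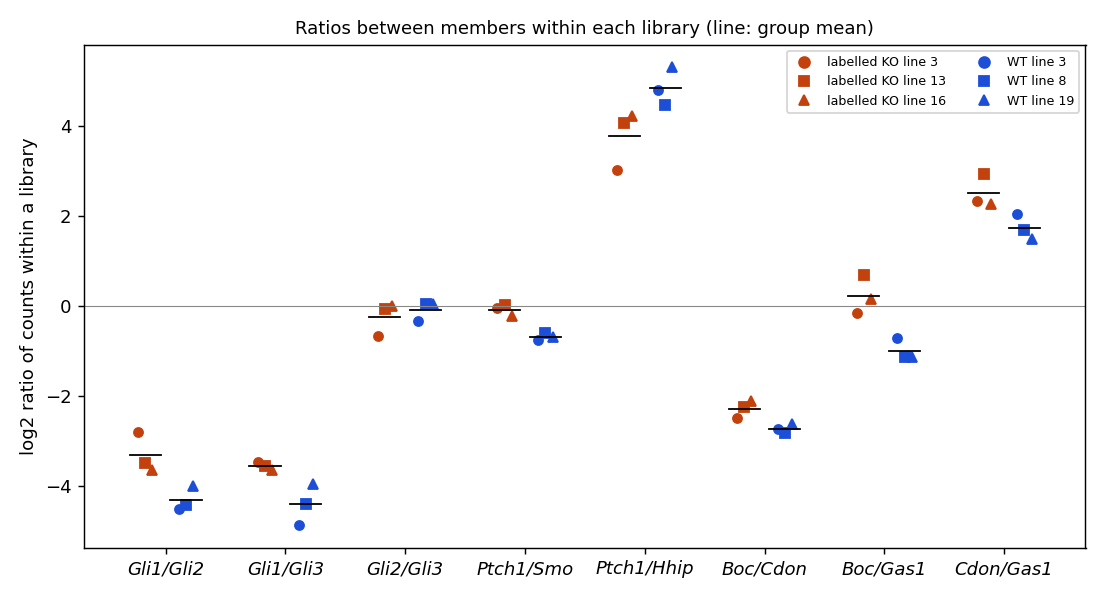
Log2 ratio of the counts of 2 genes within a library (vertical axis, not corrected for gene length) for 8 pairs, KO-labelled libraries left (orange) and WT right (blue), with a line at each group mean. Apart from Gli2/Gli3, the orange and blue points of a pair do not overlap.

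Xist-high and Xist-low lines occurred in both genotypes, 2 Xist-high lines in WT and 1 among those labelled KO, so the comparison was also made within each kind of line, as values without a test. Y-linked genes summed to 0.666, 429 and 362 CPM of total counts in KO-labelled lines 3, 13 and 16. In WT lines 3, 8 and 19 the sums were 33.7, 10.2 and 710 CPM. The Xist-high lines were thus not alike in Y-linked RNA. Within Xist-high lines (the library labelled KO line 3 against WT lines 3 and 8) the log2 ratio of mean CPM was 1.05 for Ptch1, 2.67 for Gli1, 2.65 for Hhip, 1.49 for Gli3 and 0.98 for Gli2. Within Xist-low lines (KO-labelled lines 13 and 16 against WT line 19) it was 1.01 for Ptch1, 1.63 for Gli1, 2.19 for Hhip, 1.27 for Gli3 and 1.19 for Gli2. Smo was at 0.42 and 0.41, Boc at 0.83 and 0.96 and Cdon at 0.53 and 0.52 in the Xist-high and the Xist-low lines. Gas1 was at 0.06 in the Xist-high lines and -0.58 in the Xist-low lines.

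The rest of the Hedgehog pathway had a smaller median difference. Of 52 listed genes 51 had a row, 46 were tested, 15 rose, 7 fell and 24 did not pass, with a median log2 fold change of 0.18. That is 32.6% risen and 15.2% fallen, beside 21.8% and 20.4% of all tested genes. The number that fell ran from 2 to 10 under the alternatives tried. The ligands themselves were scarce. Shh measured 1.39, 2.28 and 2.27 CPM in the KO-labelled lines 3, 13 and 16 and 1.17, 3.95 and 1.74 CPM in WT lines 3, 8 and 19, and the groups overlapped (log2 fold change -0.17, SE 0.43, edgeR adjusted p = 0.776). Ihh was near 1 CPM in every library (log2 fold change -0.09, SE 0.26, edgeR adjusted p = 0.802). Dhh was at 10.1 ± 2.62 CPM in KO-labelled libraries and 9.48 ± 4.12 CPM in WT (SD, n = 3 each), but shares 546 exon bases with Rhebl1 on the same strand and did not pass (edgeR adjusted p = 0.821).

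Other proteins that bind the ligand rose as well. Lrp2, the endocytic receptor megalin that binds Shh in the forebrain, rose by 1.503 on the log2 scale (SE 0.22), at 45.2 ± 9.69 CPM in KO-labelled libraries and 15.98 ± 4.50 CPM in WT (SD, n = 3 each). Gpc3, a glypican that competes with Ptch1 for ligand, rose at a low level, 0.785 ± 0.127 CPM in KO-labelled libraries and 0.352 ± 0.121 CPM in WT (SD, n = 3 each). Its log2 fold change was 1.20 (SE 0.36), a call lost without KO-labelled line 13 or 16 or without WT line 3 or 19.

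Of 5 tested genes for ligand processing and release or related to them, 1 rose, 1 fell and 3 did not pass. The shares, 20% each, were near the 21.8% and 20.4% of all tested genes. Disp2, a relative of the ligand-release protein Disp1, fell to 11.4, 21.9 and 25.0 CPM in the KO-labelled lines 3, 13 and 16, against 194, 189 and 263 CPM in WT lines 3, 8 and 19. The log2 fold change was -3.46 (SE 0.28, edgeR adjusted p = 4.88e-05), the largest in size among the pathway genes. Disp1 was at 30.2 ± 3.01 CPM in KO-labelled libraries and 33.6 ± 3.35 CPM in WT (SD, n = 3 each) and did not pass. Scube1, of a family of secreted proteins that help Shh leave the cell, rose by 2.25 (SE 0.54), at 5.61, 1.69 and 1.76 CPM in the KO-labelled lines 3, 13 and 16, against 0.439, 0.760 and 0.705 CPM in WT lines 3, 8 and 19. Without the library labelled KO line 3 that value was 1.47.

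**Figure D4:**
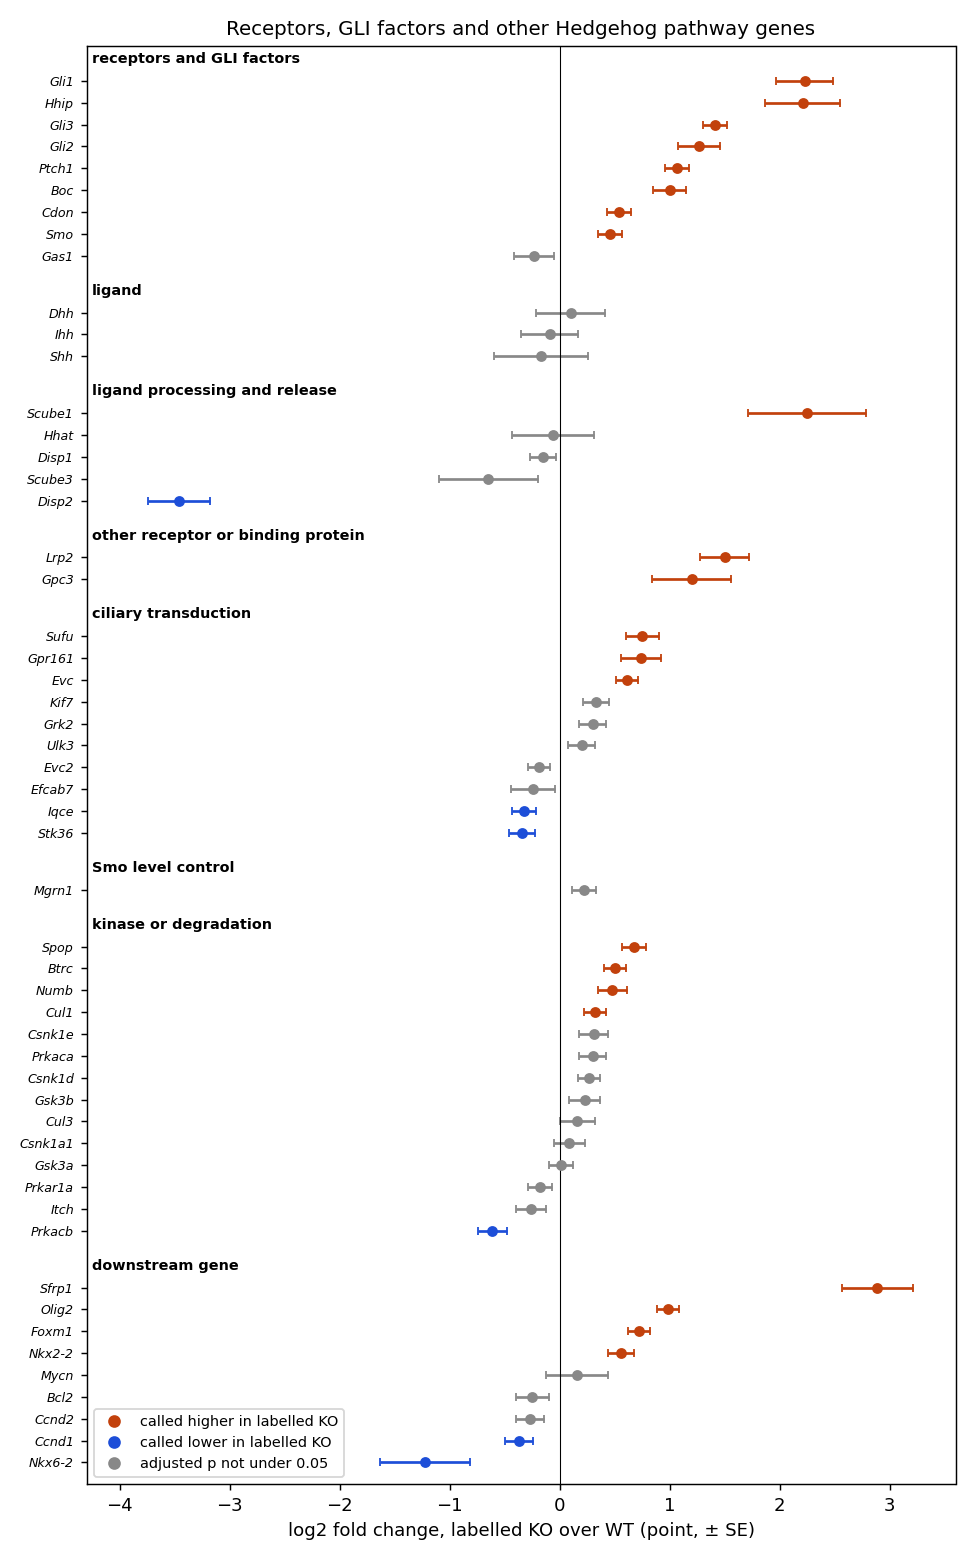
Log2 fold change of KO-labelled libraries over WT (horizontal axis, point ± SE, n = 3 each) for the 9 genes and other tested pathway genes, by role; orange points rose, blue points fell and grey points did not pass. The receptors and GLI factors are orange apart from Gas1, the 3 ligands are grey, and Disp2 lies farthest left at -3.46.

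Between Smo and the GLI factors, 3 of 10 genes rose and 2 fell. These shares, 30% and 20%, were near the 21.8% and 20.4% of all tested genes. Sufu, which binds GLI proteins and holds them inactive, measured 57.0 ± 8.63 CPM in KO-labelled libraries and 34.0 ± 4.47 CPM in WT (SD, n = 3 each) and rose by 0.75 (SE 0.15, edgeR adjusted p = 0.00382). Gpr161, a ciliary receptor that restrains the pathway through cyclic AMP, rose by 0.74 (SE 0.18), and Evc, a ciliary partner of Smo, by 0.61 (SE 0.10). Evc2 was below WT in each library labelled KO but did not pass (log2 fold change -0.19, SE 0.10, edgeR adjusted p = 0.168). Efcab7 overlapped between the groups and did not pass (log2 fold change -0.24, SE 0.20, edgeR adjusted p = 0.357). Kif7, the kinesin at the cilium tip that organises GLI proteins, was above WT in each library labelled KO but did not pass (log2 fold change 0.33, SE 0.12, edgeR adjusted p = 0.0552), and it passed at 0.44 without the library labelled KO line 3 (adjusted p = 0.00225). Iqce and Stk36 fell by 0.32 and 0.34 on the log2 scale, calls near the threshold that were lost without any 1 of the 6 libraries.

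Among kinases and degradation factors 4 of 14 rose and 1 fell, or 28.6% and 7.14%, beside 21.8% and 20.4% of all tested genes. Spop, the adaptor that sends full-length Gli2 and Gli3 to degradation, rose by 0.68 (SE 0.11), Btrc, an F-box protein that acts in GLI processing, by 0.50 (SE 0.10), Numb, which targets Gli1 for degradation, by 0.48 (SE 0.13) and the ligase scaffold Cul1 by 0.32 (SE 0.10). The calls of both Numb and Cul1 were lost without KO-labelled line 13, WT line 3 or WT line 8, and that of Cul1 also without WT line 19. Prkacb, a catalytic subunit of protein kinase A, fell by 0.61 on the log2 scale (SE 0.13). It was at 85.35, 65.51 and 72.87 CPM in the KO-labelled lines 3, 13 and 16 and 112.5, 125.3 and 103.4 CPM in WT lines 3, 8 and 19. Prkaca, another catalytic subunit, went the other way. It was above WT in each library labelled KO but did not pass (log2 fold change 0.30, SE 0.12, edgeR adjusted p = 0.0672).

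Genes named as downstream of the pathway in other tissues were split: 4 of the 9 that were tested rose and 2 fell. Those shares were 44.4% and 22.2%, beside 21.8% and 20.4% of all tested genes. Olig2 and Nkx2-2, which Shh induces in the ventral neural tube, rose by 0.99 (SE 0.10) and 0.56 (SE 0.12), Foxm1, a cell cycle transcription factor, by 0.72 (SE 0.10), and Sfrp1, a secreted Wnt antagonist, by 2.89 (SE 0.32). Sfrp1 was at 5.02, 4.91 and 5.88 CPM in the KO-labelled lines 3, 13 and 16, against 0.951, 0.304 and 0.813 CPM in WT lines 3, 8 and 19. The G1 cyclin gene Ccnd1 fell by 0.37 on the log2 scale (SE 0.13), a call lost without any 1 library other than that labelled KO line 3, and 23.4% of its exon bases are shared with LTO1 on the opposite strand. Nkx6-2 fell by 1.22 (SE 0.41) at a low level, 0.335 CPM in KO-labelled libraries and 0.780 CPM in WT. That call was lost without any 1 library other than KO-labelled line 16. Nkx6-2 held 4 to 24 counts per library, and 12.9% of its exon bases are shared with Inpp5a on the opposite strand. Inpp5a held 346 to 677 counts per library, so reads of these 2 genes may be mixed if the counting ignored strand. Mycn measured 5.58 ± 1.09 CPM in KO-labelled libraries and 5.00 ± 1.76 CPM in WT (SD, n = 3 each) and did not pass. Nkx6-1 had 0 counts in every library, and Nkx2-1, Foxa2, Foxf1 and Scube2 had too few to be tested.

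Some cell type markers also differed between KO-labelled and WT libraries. Of the 8 neural precursor markers 0 rose and 2 fell, Vim at -0.48 and Slc1a3 at -0.35 (log2 fold change). Of 5 oligodendrocyte precursor markers 3 rose and 0 fell, and they summed to between 394 and 585 CPM in KO-labelled libraries and between 327 and 380 CPM in WT. Pdgfra, the growth factor receptor of these precursors, was at 40.6, 38.6 and 37.8 CPM in the KO-labelled lines 3, 13 and 16, against 3.58, 1.11 and 2.22 CPM in WT lines 3, 8 and 19. Of 5 astrocyte markers 0 rose and 3 fell, with sums between 98.7 and 141 CPM in KO-labelled libraries and between 237 and 480 CPM in WT. Beside these lists, 21.8% of all tested genes rose and 20.4% fell. The part of these lists in the results above was not tested, and in bulk nuclear RNA fewer cells of a type cannot be told apart from less RNA per cell.

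The genes whose pattern over the 6 libraries was nearest to a target gene were found by the root mean square difference of log2 CPM centred on each gene's mean, among 11764 named genes. Nearest to Ptch1 were Dclk2, a doublecortin-like kinase, at a difference of 0.0399, Prx at 0.0564 and Tanc2 at 0.0665. Nearest to Gli1 were Rftn2, a lipid raft protein, at 0.139, the laminin subunit gene Lama1 at 0.186 and Dpp6, a potassium channel auxiliary subunit, at 0.186. Among the 9 themselves, Boc lay nearest to Ptch1 at 0.123 and Gli3 nearest to Gli1 at 0.467, while Gas1 lay farthest from both, at 0.687 and 1.23. These 6 libraries hold the step between genotypes, so the measure takes in that step as well as differences among replicates.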

How the data were processed

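The deposited values are raw read counts for each gene symbol, 1 file for each of the 6 libraries, with no normalization. Cutadapt 1.14, STAR, HTSeq 0.7.2, DESeq2 and build mm10 (GRCm38) are named, without their roles, in the submitters' processing notes. Neither the annotation nor the strand setting is given in the sources used here. Positions, exon lengths and overlaps came from GENCODE M21.

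The test was edgeR 4.0.16 (R 4.3.3) on all 6 libraries: filterByExpr, TMM scaling, and a robust quasi-likelihood fit of genotype with 4 residual degrees of freedom. Two-sided p-values received Benjamini-Hochberg adjustment over all 13925 genes. Standard errors (SE) came from the F statistic. Log2 ratios carried a prior count of 0.5. Grk2 and Foxf1 were matched through synonyms, and Mosmo was not matched. On simulated data for this comparison (13811 genes, 200 changed), 25.4% of genes changed 1.5-fold, 86.4% changed 2-fold and 98.5% changed 4-fold were called, and 4.14% of calls were false. The simulated counts were drawn independently for each gene, without differences between lines that many genes share. In the data 5884 genes were called, so these rates may not carry over.

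The 9 genes, the pathway list and the marker lists were chosen with earlier results of these data known. Named were the 9 genes; the ligands, Sufu and Kif7; up to 4 called pathway genes per role and direction by smallest p; the 3 genes nearest to Ptch1 and to Gli1; and genes whose exons overlap those of the 9. Some pathway genes that are in the counts are not reported here by name or in the plot. Other genes named (Disp1, Mycn, Evc2, Efcab7, Prkaca, genes overlapping pathway genes, those too low to test, and markers) were chosen after their values were seen. Alternatives were other size factors, filters and tests (DESeq2 1.42.0; limma 3.58.1 voom with sample weights), a covariate of Y-linked genes, a threshold of 0.10 and leaving out libraries.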

Additional observations from a re-analysis of the deposited data

How the results depend on the processing

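All 144 alternatives computed for the 9 genes kept the direction of change and the side of the threshold, Gas1 not passing in any. The number of genes called was 5884 and ran from 4262 to 7986 under the alternatives, some of which also change which genes are tested. The 15 pathway genes that rose numbered 12 to 22 under the alternatives. The 7 that fell were less stable: 3 with DESeq2 size factors, 3 with upper-quartile factors, 2 without a filter, 2 with a filter of 1 CPM in 3 libraries, 4 in the DESeq2 Wald test and 2 to 5 when 1 library was left out, but 10 in limma-voom, 9 with the Y-linked covariate and 8 without KO-labelled line 3 and WT line 19. The cause was not tested. Shh reversed to 0.35 in limma-voom and ran from -0.52 to 0.48 with 1 library left out, Dhh from -0.15 to 0.49, Fmr1 from -0.58 (passing, without KO-labelled line 3) to 0.14 and the Gli2/Gli3 log2 ratio difference from -0.29 to 0.05. Dhh passed at 0.69 (adjusted p = 0.00451) without the library labelled KO line 3 and WT line 19 together. Among other scalings the median of all genes shifted farthest, by -0.0150 (log2), with library size alone. No paired analysis was made, because the sources used here give no pairing of lines between genotypes. Both have a line numbered 3, but the labels do not say that these lines match. Gli1 and Hhip in WT rest on 23 to 46 counts per library, which limits their precision.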

Other observations

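Of 6 neuronal markers 5 were tested, of which 1 rose, 1 fell and 3 did not pass, namely Tubb3 (log2 fold change 0.31), Rbfox3 (0.19) and Syt1 (0.63), while Slc17a6 had 0 counts in every library. Snap25, a synaptic vesicle fusion protein, was at 9.83, 5.54 and 4.51 CPM in the KO-labelled lines 3, 13 and 16, against 1.61, 0.861 and 0.651 CPM in WT lines 3, 8 and 19 (log2 fold change 2.60, SE 0.39, edgeR adjusted p = 0.00104). Gad1, which makes GABA, was at 1.02, 0.592 and 0.858 CPM in KO-labelled libraries, against 2.96, 5.27 and 2.39 CPM in WT (log2 fold change -2.11, SE 0.36, edgeR adjusted p = 0.00189). The collagen gene Col1a1 rose by 1.42 (SE 0.25) and Foxc1, a transcription factor of meningeal cells, fell by 0.87 on the log2 scale (SE 0.14), while Aif1, Csf1r, Cx3cr1 and Tmem119 of microglia had at most 5 counts in any library. Of 4 endothelial markers 2 were tested, and Flt1 fell by 1.20 on the log2 scale (SE 0.29).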
